A study of Mus musculus with 26 samples.

Results

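A set of 10 developmental genes of the Sox family was examined in maps of bivalent chromatin from mouse embryonic stem cells. The genes were Sox1, Sox21, Sox11, Sox6, Sox8, Sox9, Sox10, Sox7, Sox17 and Sox18, which are 10 of the 26180 RefSeq genes with an annotated start site on mm10. For each gene, every deposited region overlapping the window of 1.5 kb either side of a start site was collected, and in each of the 12 tables of regions the region with the most overlap was kept. This gave 98 kept regions of the 338442 regions that the tables hold together.

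SOX proteins are transcription factors that bend DNA through a high mobility group box, and the family is divided into subgroups by the similarity of that box. Most of these genes are silent or nearly so in embryonic stem cells and are switched on when particular lineages form, such as neural tissue, cartilage, neural crest, endoderm and blood vessels. Promoters of this kind are the classical sites of bivalent chromatin, where nucleosomes carry both H3K4me3, a mark of active promoters, and H3K27me3, the mark laid down by Polycomb repressive complex 2. DPPA2 and DPPA4 are a pair of DNA-binding proteins of early embryonic cells that help to maintain bivalency at a subset of such promoters.

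The samples were 26 libraries of E14 mouse embryonic stem cells (non-clonal, wild type, replicates 1 and 2), of WT clones 57 and 58 and of DKO clones 43 and 53, the latter carrying a double knockout of Dppa2 and Dppa4. All cells were kept in serum with LIF. Chromatin was precipitated with an antibody, 10% of the eluate was set aside as the in-line total H3K4me3 or total H3K27me3, and the rest was precipitated with the opposing antibody, H3K4me3 then H3K27me3 for K4-K27 and the reverse order for K27-K4. Each ChIP had 2 libraries per group, IgG-IgG controls came from E14 replicate 1 and WT clone 57, and the sequencing batch was A for E14 replicate 1, B for E14 replicate 2 and C for every clone. Each genotype of the clones is therefore represented by 2 clonal lines, and E14 cells and clones differ in batch, so a difference between them cannot be told apart from the batch. The H3K4me3 antibody can also bind H3K4me2, by the study's own account.

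A library held from 6741244 to 47903462 reads (median 16875025.5), and the shallowest and the deepest were K27-K4 of E14 replicates 1 and 2. Levels are given as log2 RPM per kb, the reads scaled to library size and divided by the region length in kilobases on a log2 scale, without subtraction of IgG-IgG. Promoters of 6 genes that define embryonic stem cells (Pou5f1, Nanog, Sox2, Zfp42, Esrrb and Tdgf1) had a total H3K4me3 region at 6 of 6 in E14, WT and DKO tables, and a total H3K27me3 region at 1, 1 and 0 of 6. The same promoters had a K4-K27 region at 5, 6 and 6 of 6 and a K27-K4 region at 6, 1 and 1 of 6. Total H3K4me3 at the Dppa2 and Dppa4 promoters differed between DKO and WT by 0.37 and 0.08 and neither was called, which does not check the deletion, since a promoter can keep its mark.

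Bivalent promoters are known to be rich in CpG, so the 250 bases before the start site are shown here for the members that the RefSeq promoter table (GRCm38.p6) holds, in lower case with every CG in capitals. The letters CG read the same on both strands. Of the 32851 promoters in the table, the median held 6 CG and 7.87% held none. The table held 5 of the 10 members. For Sox6, which is a gene with several start sites, the pair of promoters within its reChIP region is shown, because E14 cells had an H3K4me3 region at either promoter and the clones at that of the upstream start alone.
Sox1, chr8:12395269-12395518, + strand: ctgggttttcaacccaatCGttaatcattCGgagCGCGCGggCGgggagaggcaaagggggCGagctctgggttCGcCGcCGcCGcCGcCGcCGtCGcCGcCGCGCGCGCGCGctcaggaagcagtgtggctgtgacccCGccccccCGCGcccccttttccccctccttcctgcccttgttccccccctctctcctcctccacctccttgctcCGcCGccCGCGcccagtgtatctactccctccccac
Sox21, chr14:118237031-118237280, - strand: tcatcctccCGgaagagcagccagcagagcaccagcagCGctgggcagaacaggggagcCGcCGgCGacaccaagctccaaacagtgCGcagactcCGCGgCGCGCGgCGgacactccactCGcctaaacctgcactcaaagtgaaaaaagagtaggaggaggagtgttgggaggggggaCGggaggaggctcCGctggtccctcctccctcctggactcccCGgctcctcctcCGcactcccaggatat
Sox11, chr12:27342719-27342968, - strand: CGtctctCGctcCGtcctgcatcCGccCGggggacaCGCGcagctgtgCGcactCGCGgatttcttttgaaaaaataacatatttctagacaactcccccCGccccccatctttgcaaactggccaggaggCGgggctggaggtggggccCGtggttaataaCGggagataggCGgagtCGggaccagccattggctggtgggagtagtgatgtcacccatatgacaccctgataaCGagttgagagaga
Sox6 start 116038744, chr7:116038745-116038994, - strand: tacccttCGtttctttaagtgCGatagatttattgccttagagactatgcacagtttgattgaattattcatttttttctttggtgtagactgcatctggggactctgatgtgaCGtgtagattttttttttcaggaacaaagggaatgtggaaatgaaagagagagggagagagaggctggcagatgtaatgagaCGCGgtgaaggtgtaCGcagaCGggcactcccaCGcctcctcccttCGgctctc
Sox6 start 116031047, chr7:116031048-116031297, - strand: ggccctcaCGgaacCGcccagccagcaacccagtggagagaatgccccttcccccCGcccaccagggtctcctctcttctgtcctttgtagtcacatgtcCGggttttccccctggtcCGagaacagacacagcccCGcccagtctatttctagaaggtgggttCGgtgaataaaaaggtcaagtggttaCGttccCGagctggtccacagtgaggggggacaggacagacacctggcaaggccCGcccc
Sox8, chr17:25570687-25570936, - strand: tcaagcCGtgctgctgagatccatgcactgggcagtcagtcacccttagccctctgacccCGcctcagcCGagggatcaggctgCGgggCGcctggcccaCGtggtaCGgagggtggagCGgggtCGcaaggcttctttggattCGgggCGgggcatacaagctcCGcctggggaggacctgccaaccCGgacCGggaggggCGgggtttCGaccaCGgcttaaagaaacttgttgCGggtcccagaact
The Sox1 promoter held 29 CG at 71.2% GC, and 93.2% of the promoters in the table held fewer. Sox8, Sox21 and Sox11 held 18, 17 and 17 CG, and the share of promoters with fewer was 78.3% for Sox8 and 76.5% for the other two. The Sox6 promoters held 9 and 10 CG, above 59.7% and 62.2% of promoters. All of these promoters lay within the reChIP region of their gene in E14 cells.

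In E14 cells each of the 10 Sox genes had a K4-K27 region and a K27-K4 region at its promoter, and for each gene both orders of precipitation listed the identical region, as they did for 89.1% of all K4-K27 regions and 60.3% of all K27-K4 regions. Over all genes, 58.7% had a K4-K27 region and 66.2% a K27-K4 region, so the regions of the members are described by their width and level. The widest lay over Sox1, a subgroup B1 gene of neural progenitors, at chr8:12380101-12407400 (27300 bp). Sox21, a subgroup B2 gene that counters the B1 proteins in neurogenesis, had chr14:118222351-118238550 (16200 bp). The narrowest lay over Sox11, a subgroup C gene of developing neurons, at chr12:27337801-27344700 (6900 bp). Sox6, a subgroup D gene of cartilage and red cell formation, had chr7:116029351-116041800 (12450 bp), which covered 2 start sites.

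In subgroup E, the genes of neural crest, glia, cartilage and gonad, the region was chr17:25565401-25582650 for Sox8 (17250 bp), chr11:112772701-112791600 for Sox9 (18900 bp) and chr15:79156651-79170300 for Sox10 (13650 bp). In subgroup F, the genes of endoderm and endothelium, it was chr14:63938851-63949650 for Sox7 (10800 bp), chr1:4487701-4499250 for Sox17 (11550 bp) and chr2:181667401-181676400 for Sox18 (9000 bp). The median width of 13050 bp compares with 4050 bp for all K4-K27 regions and 3750 bp for all K27-K4 regions at promoters, and each of the 10 was wider than both medians. Their levels lay between the 78.0 and 98.2 percentile of K4-K27 promoter regions and between the 77.9 and 98.1 percentile of K27-K4 promoter regions.

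The in-line totals of the same E14 cells gave fewer regions at these genes. By the study's account these totals held little starting material and were noisy, and few peaks could be called from them. Total H3K4me3 had a region at 4 of 10, Sox21, Sox6, Sox9 and Sox7, against 53.2% of all genes. Total H3K27me3 had a region at 3 of 10, Sox8, Sox7 and Sox17, against 12.1% of all genes, and those of Sox8 and Sox7 covered no start site. The H3K27me3 count depends on the window around the start sites. Within 500 bp it was 2 of 10, for which the share of all genes was not computed. Within 5 kb it was 7 of 10, with Sox1, Sox6, Sox9 and Sox10 added, against 17.5% of all genes. Sox7 was the single member with a region for both totals in E14 cells. These regions were shallow: over the H3K4me3 region of Sox9 the total was 1.10 and 1.24 against -0.17 for IgG-IgG, on 150 and 356 reads, and over the H3K27me3 region of Sox17 it was 1.12 and 0.64 against -0.40, on 72 and 134 reads. At none of the 7 kept regions did both replicates exceed IgG-IgG by 2 log2 units or more.

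**Figure D1:**
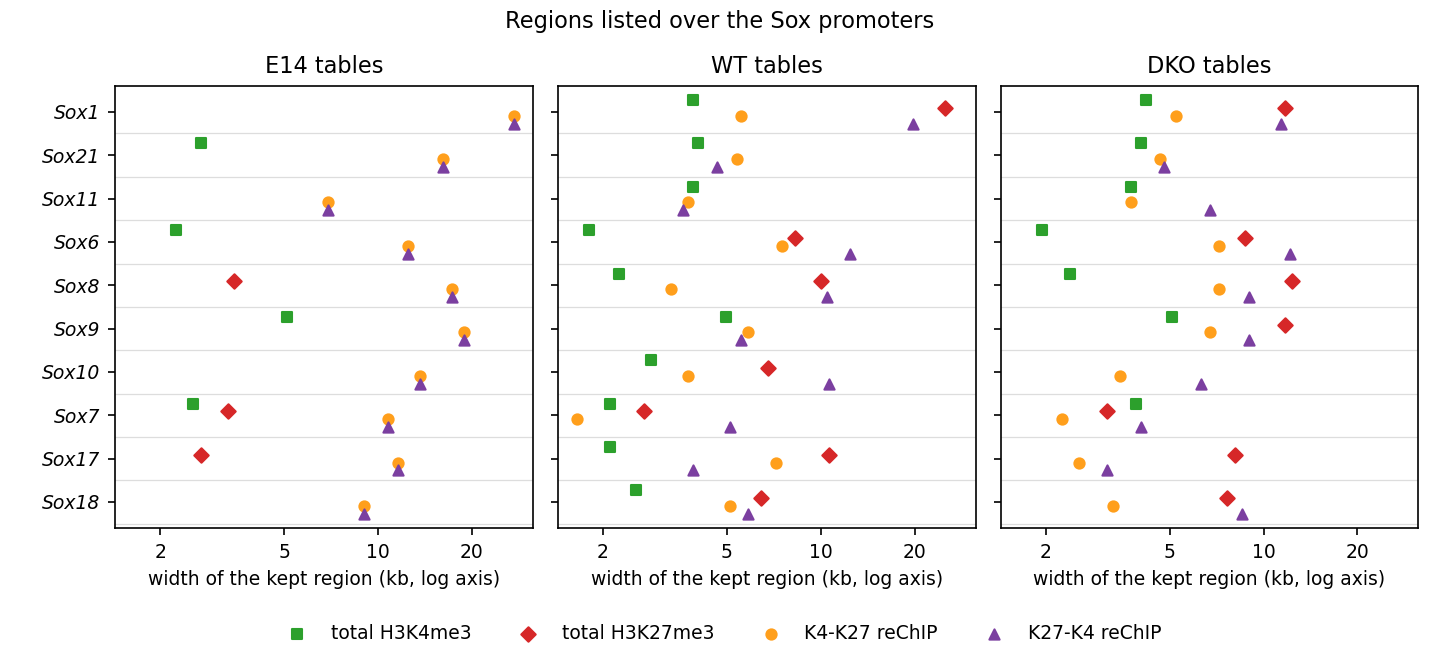
Width in kb (log axis) of the region kept at each Sox promoter in the E14, WT and DKO tables, by ChIP; a missing symbol means that the table lists no region there. The reChIP symbols are present for all 10 genes in each panel, and in DKO the total H3K4me3 symbol is missing for Sox10, Sox17 and Sox18.

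In the WT clones, total H3K4me3 listed a region at 10 of 10 members (60.2% of all genes) and total H3K27me3 at 7 of 10 (15.8%), all but Sox21, Sox11 and Sox9. K4-K27 listed 10 of 10 (59.4%) and K27-K4 10 of 10 (33.7%). In the WT tables the H3K27me3 regions of the members were broad, from 2700 to 25050 bp with a median of 8250 bp against 2700 bp for all promoters, while the H3K4me3 regions had a median of 2700 bp against 2400 bp. Their H3K4me3 levels spread over nearly the whole range, from the 6.64 to the 89.7 percentile of promoter regions. At Sox6 the H3K4me3 region kept for E14 cells, that with the most overlap (chr7:116030551-116032800), covered the start at 116031047, and the E14 table listed another (chr7:116039101-116040900) at the promoter of the start at 116038744. That of WT clones (chr7:116038951-116040750) lay at the latter promoter and covered no start site, and the DKO region (chr7:116039101-116041050) lay there too.

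In the DKO clones, total H3K4me3 listed a region at 7 of 10 members (56.1% of all genes), and the 3 without were Sox10, Sox17 and Sox18. Within 5 kb of a start site Sox17 had one too, which makes 8 of 10 (59.8% of all genes). In WT clones the H3K4me3 regions of Sox10, Sox17 and Sox18 were chr15:79162201-79165050, chr1:4496101-4498200 and chr2:181669651-181672200. Total H3K27me3 listed 7 of 10 (17.6%), all but Sox21, Sox11 and Sox10, so Sox9 had a region in DKO and not in WT, and Sox10 in WT and not in DKO. K4-K27 listed 10 of 10 (57.8%) and K27-K4 10 of 10 (32.1%), Sox10, Sox17 and Sox18 included. The share of all regions that exceeded IgG-IgG by 2 log2 units or more in both clones was not computed. Of the members, 6 of the K4-K27 regions and 7 of the K27-K4 regions did so in both DKO clones. Among Sox10, Sox17 and Sox18 none did, but this depends on the region. Over the WT-table regions Sox17 exceeded IgG-IgG by 3.01 and 2.09 in K4-K27 of DKO clones 43 and 53, and Sox18 by 2.35 and 2.03 in K27-K4. In K27-K4 the Sox17 region was short of 2 in WT clone 58 as well (2.00 and 1.84 in clones 57 and 58). A listed region is a threshold call, and the levels behind these calls are compared by group.

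Over the shared E14 reChIP regions each member can be followed through all 26 libraries. For Sox11, the E14 levels in replicates 1 and 2 were 0.50 and 0.74 in total H3K4me3, -0.71 and -0.78 in total H3K27me3, 1.98 and 2.59 in K4-K27, then 2.44 and 3.95 in K27-K4, with IgG-IgG at -0.40. In WT clones 57 and 58 they were 3.00 and 1.65, 0.41 and 0.24, 3.96 and 3.12, and 3.39 and 2.65 in the same order of ChIPs, with IgG-IgG at 0.34. In DKO clones 43 and 53 they were 2.48 and 2.02, 0.93 and 0.67, 3.76 and 2.53, and 3.23 and 2.63. Sox11 thus had the highest total H3K4me3 of the 10 members by level in each of the 6 H3K4me3 libraries. Relative to IgG-IgG, Sox6 was highest in WT clone 58 (1.44 against 1.31 for Sox11) and DKO clone 53 (1.80 against 1.68), and Sox11 in the other H3K4me3 libraries. The total H3K27me3 of Sox11 was the lowest in both E14 replicates, below IgG-IgG there, and differed from IgG-IgG by 0.07 and -0.10 in the WT clones.

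Sox1 had total H3K4me3 levels of 0.19 and 0.01 in E14, 1.44 and 0.63 in WT and 1.32 and 1.23 in DKO. Its total H3K27me3 was 0.37 and 0.51 in E14, 2.03 and 1.33 in WT and 1.72 and 1.63 in DKO. In both WT clones this was the highest of the 10 by level. At the other end of total H3K27me3 in the WT clones stood Sox7, at 0.37 and -0.28, and then Sox11. Relative to IgG-IgG, Sox6 was highest in both WT clones (2.825 and 2.14), against 1.89 and 1.20 for Sox1. The K4-K27 levels of Sox1 were 2.40 and 2.46 in E14, 2.92 and 2.64 in WT, and 2.81 and 2.30 in DKO.

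Sox7 stood lowest in the WT clones. Its K4-K27 level was 1.82 and 1.97 in E14, 1.00 and 0.37 in WT and 0.98 and 0.15 in DKO, and its K27-K4 level was 1.81 and 3.01, 1.51 and 1.17, and 1.22 and 0.73. In both WT clones Sox7 was the lowest member in all 4 ChIPs by level, and IgG-IgG was low there too, at -0.81. Relative to IgG-IgG, Sox7 was lowest in both WT clones in total H3K4me3 alone (0.52 and -0.04), Sox11 was lowest in total H3K27me3, and the reChIPs had Sox7 lowest in 1 clone each, with Sox10 (1.67) for K4-K27 of clone 57 and Sox8 (1.92) for K27-K4 of clone 58. Sox10, the neural crest and glial gene, was the lowest member in E14 by mean in total H3K4me3 (0.05 and -0.33), K4-K27 (1.66 and 1.72) and K27-K4 (1.60 and 2.96). Its levels over this region in WT clones were 1.54 and 1.27 for K4-K27, then 2.42 and 2.08 for K27-K4, and in DKO clones 0.21 and 0.71, then 1.16 and 1.05, so the DKO values lay below the WT values in both reChIPs.

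Sox17, which drives endoderm formation, had K4-K27 levels of 2.21 and 2.83 in E14, 3.32 and 2.94 in WT and 3.03 and 2.09 in DKO. Its K27-K4 levels were 2.34 and 3.83, 3.80 and 3.02, and 2.78 and 2.63, and in the WT clones they were the highest of the 10 by level. Relative to IgG-IgG, Sox6 was highest in K27-K4 of the WT clones (4.36 and 3.77), against 3.52 and 2.74 for Sox17. Sox18, a regulator of lymphatic endothelium, had K4-K27 levels of 2.26 and 2.69, 3.10 and 2.59, and 1.87 and 1.14. Its K27-K4 levels were 2.10 and 3.75, 3.59 and 2.75, and 2.35 and 2.05. For Sox18 the DKO clones lay below the WT clones in both reChIPs, and for Sox17 they did so in K27-K4, while in K4-K27 DKO clone 43 lay within the WT range.

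Mean K4-K27 levels in E14 ran from 2.61 for Sox6 to 1.69 for Sox10, in the order Sox6, Sox17, Sox18, Sox1, Sox11, Sox21, Sox9, Sox7, Sox8 and Sox10, and just 1 neighbouring pair in that order had replicates that did not overlap. For K27-K4 in E14 the means ran from 3.20 for Sox6 to 2.28 for Sox10, and 0 neighbouring pairs were apart. For total H3K4me3 in the DKO clones, where the clones lay closest to each other, the means ran from 2.25 for Sox11 to -0.59 for Sox10 and 6 neighbouring pairs were apart. This count takes the offset between libraries, which the members of a library share, as spread, so it does not decide the order within a library. In E14 K27-K4, Sox6, Sox11 and Sox17 were the highest and Sox7, Sox8 and Sox10 the lowest in both replicates.

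**Figure D2:**
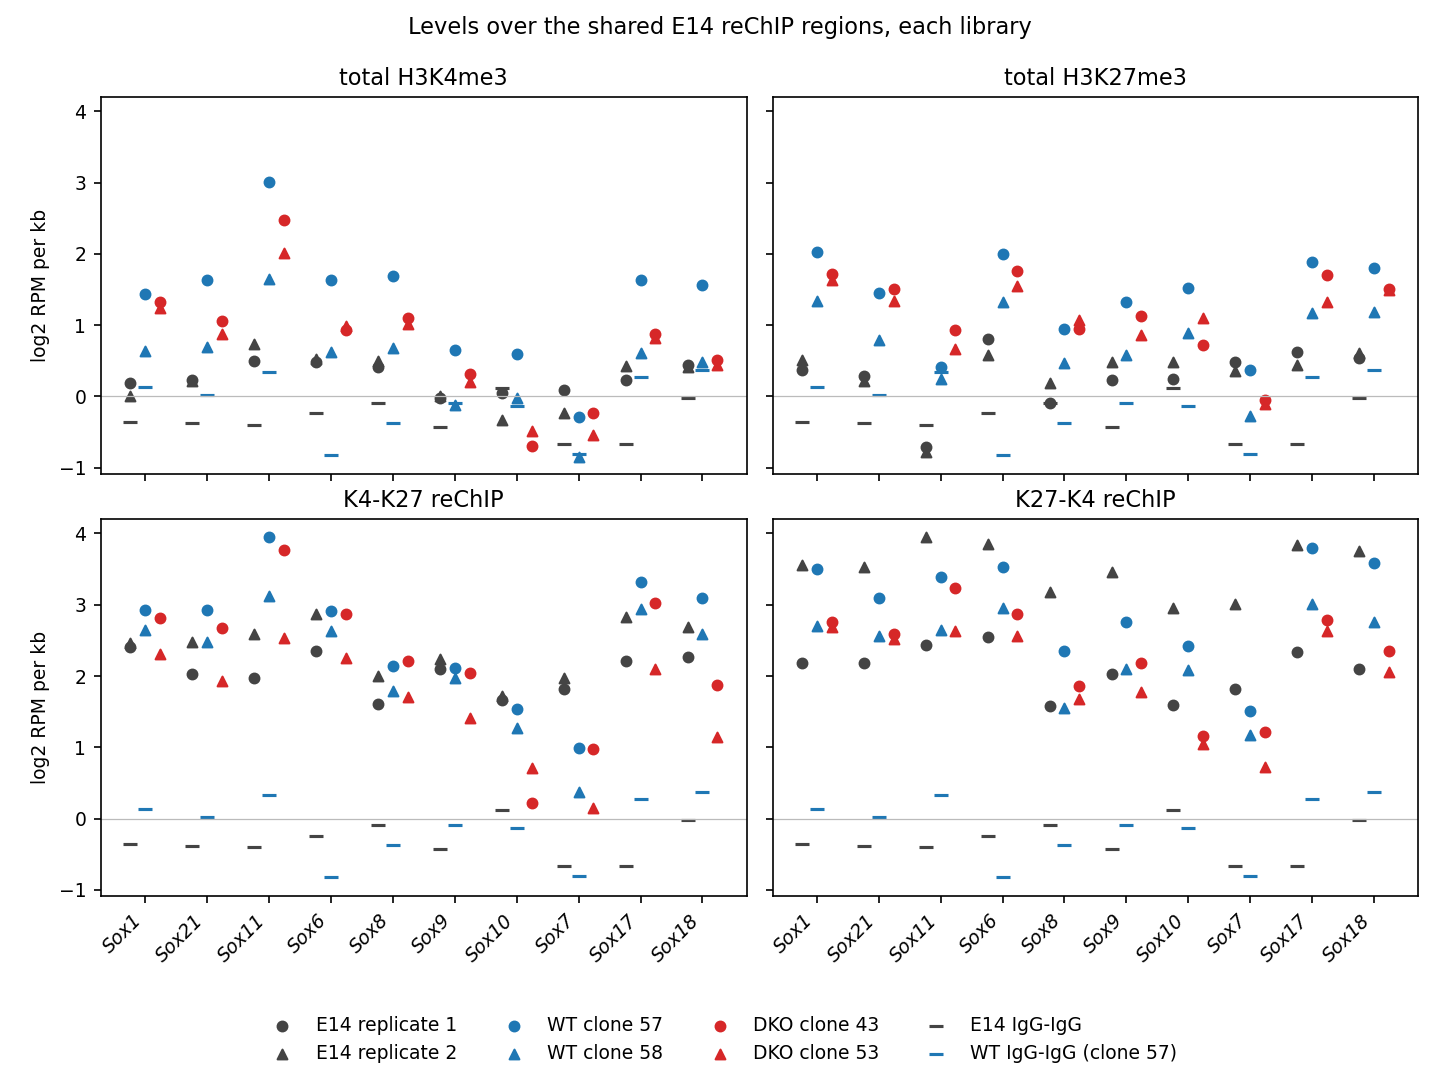
Level (log2 RPM per kb) of every library over the E14 reChIP region of each Sox gene, 1 panel per ChIP, with E14 in black, WT clones in blue, DKO clones in red and IgG-IgG as short lines. WT clone 57 lies above WT clone 58 for every gene in every panel, and E14 replicate 2 lies above replicate 1 for every gene in K27-K4.

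The replicates themselves were offset from one another. In K27-K4, E14 replicate 2 lay above replicate 1 at 10 of 10 members, by 1.20 to 1.65, and the median over all shared regions was 1.11. WT clone 58 lay below clone 57 at 10 of 10 members in all 4 ChIPs, by a median that ran from -0.36 in K4-K27 to -0.97 in total H3K4me3, where the median over all shared regions was -1.01. Such offsets enter the error of every comparison of these groups.

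Whether a second precipitation enriched the Sox promoters beyond the in-line total was asked with limma over all regions of each reChIP table, where a call needed a difference of at least 1 on the log2 scale and an adjusted p (Benjamini-Hochberg over all regions) under 0.05. These regions are those listed for the same reChIP that is then compared with its total, so the differences carry that choice. In E14 cells, K4-K27 lay above total H3K4me3 at all 10 members in both replicates, a separation that 51.9% of regions had. The differences ran from 1.36 for Sox8 to 2.33 for Sox1 (SE 0.41), with a median of 2.04 against 0.64 over all regions. By limma 0 of 10 were called (0% of all regions called higher), with adjusted p from 0.0727 to 0.119, although 10 of 10 had an unadjusted p under 0.05 (28.9% of regions). With the replicate number as a block, 10 of 10 were called, and 25.5% of regions. Leaving out K4-K27 replicate 1 or 2 gave 10 calls (35.3% and 31.7% of regions), and leaving out total H3K4me3 replicate 2 gave 4 (3.08%). Wherever a library is left out, its group holds 1 library, which is assumed to vary like the other group. With each library centred on its median, which moved every difference by -0.48, 7 were called, all but Sox8, Sox10 and Sox7, against 5.6% of regions.

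In the same cells K27-K4 lay above total H3K27me3 at 10 of 10 members in both replicates (85.5% of regions), and by limma 10 of 10 were called higher, against 59.6% of all regions. The largest difference was that of Sox11, 3.94 (SE 0.77, limma adjusted p = 4.2e-06), from -0.71 and -0.78 in the total to 2.44 and 3.95 in the reChIP. The smallest was that of Sox10, 1.91 (SE 0.80), from 0.25 and 0.48 to 1.60 and 2.96. The median over members was 2.41 against 1.75 over all regions. With the replicate block 3 of 10 stayed called (Sox21, Sox11 and Sox8), against 41.6% of regions. With centred libraries, which moved every difference by -1.52, 2 did (Sox21 and Sox11), against 26.3% of regions. Without H3K27me3 replicate 1 or 2, 0 did (11.6% and 4.55% of regions). Control promoters of the study are a further measure of this contrast. K27-K4 over total H3K27me3 was 3.87 at Klf4 and 2.85 at Gapdh, chosen by the study as H3K4me3-only promoters. At promoters chosen as H3K27me3-only it was 0.18 at Gm6116 and 2.25 at Meis2, of which Meis2 was called higher (limma adjusted p = 0.0107). The study also used Dppa2 and Dppa4 as H3K4me3-only. The K27-K4 region at Dppa2 was 900 bp wide with a mean level of 0.52, the 7.79 percentile of promoter regions, and Dppa4 had none.

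In the WT clones the comparison was made over the WT reChIP regions. K4-K27 lay above total H3K4me3 at 10 of 10 members in both clones, as it did at 35.7% of regions. At Sox18, total H3K4me3 was 2.16 and 0.96 and K4-K27 was 3.89 and 3.32, a difference of 2.04 (SE 0.92). At Sox8, where the difference of 1.30 was the smallest, total H3K4me3 was 3.02 and 1.79 and K4-K27 was 3.81 and 3.60. By limma 0 of 10 were called, against 0.139% of regions, and 4 of 10 had an unadjusted p under 0.05 (Sox9, Sox7, Sox17 and Sox18), as did 12.3% of regions. The median over members was 1.70 against 0.46 over all regions. With clone as the block 9 of 10 were called, all but Sox11, against 13.2% of regions. With centred libraries, which moved every difference by -0.44, 7 were called, against 8.68% of regions.

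K27-K4 lay above total H3K27me3 at 10 of 10 members in both WT clones (65.3% of regions), and by limma 4 of 10 were called, Sox21, Sox11, Sox9 and Sox7, against 24.4% of regions. At Sox11, total H3K27me3 was 0.47 and 0.32 and K27-K4 was 4.02 and 3.13, a difference of 3.18 (SE 0.60, limma adjusted p = 1.6e-05). At Sox21, a neural gene like Sox11, it rose from 1.89 and 1.21 to 4.36 and 3.76, by 2.51 (SE 0.70, limma adjusted p = 0.0045). At Sox9, the cartilage and testis gene, it rose from 1.97 and 1.05 to 4.30 and 3.44, by 2.36 (SE 0.69, limma adjusted p = 0.0063). At Sox7 it rose from 0.68 and 0.08 to 2.35 and 1.89, by 1.74 (SE 0.51, limma adjusted p = 0.0067). Of these 4, Sox21, Sox11 and Sox9 are the members without a total H3K27me3 region in the WT table. That table describes the same WT clones and is no separate measurement. The other 6 differences ran from 1.12 for Sox10 to 1.77 for Sox18. With clone as the block 10 of 10 were called, against 27.2% of regions. With centred libraries, which moved every difference by -0.83, just Sox11 was, against 3.53% of regions. Without H3K27me3 clone 57, H3K27me3 clone 58 or K27-K4 clone 57 the count was 1, 0 and 1, against 5.12%, 1.82% and 10.6% of regions.

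**Figure D3:**
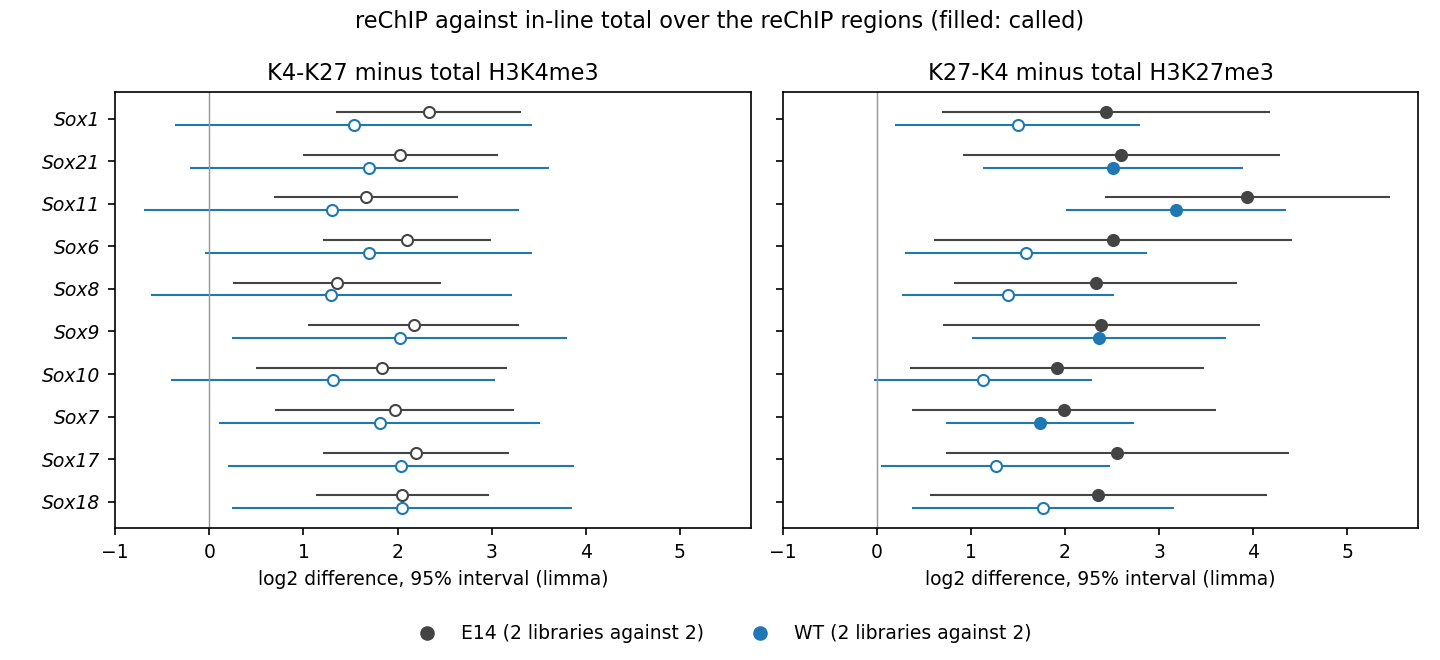
Log2 difference between each reChIP and its in-line total at the Sox promoters, with the 95% interval from limma, in E14 (black) and WT clones (blue), 2 libraries against 2; filled points were called. All points lie above 0, and Sox11 has the largest K27-K4 difference in both groups.

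The order of precipitation was compared in E14 cells, where both reChIPs share their regions. The mean of K27-K4 was higher than that of K4-K27 by 0.44 to 0.91 at the 10 members, with a median of 0.57 against 0.70 over all regions. In replicate 2 K27-K4 lay above K4-K27 at every member. In replicate 1 it did so at Sox21, Sox11, Sox6 and Sox17, and lay below at Sox1 (2.19 and 2.40), Sox8, Sox9, Sox10, Sox7 and Sox18. The largest difference was at Sox11 (0.91, SE 0.95, limma adjusted p = 0.83), from the K4-K27 levels of 1.98 and 2.59 to the K27-K4 levels of 2.44 and 3.95. Both K27-K4 libraries lay above both K4-K27 libraries at 0 of 10 members (15.1% of regions). By limma 0 of 10 were called, 0% of all regions were, 0 members had an unadjusted p under 0.05 (0.252% of regions), and the replicate block also gave 0 (6.97% of regions). With centred libraries, which moved every difference by -0.68, 9 of the 10 differences changed sign, all but that of Sox11.

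Loss of DPPA2 and DPPA4 was examined with limma over the regions of the WT and DKO tables of each ChIP together, from 53286 to 64063 regions, and shares of regions are of that pooled set. Each member was read at its WT-table region (for Sox9 H3K27me3, that of the DKO table). Those regions are the ones listed for the WT clones that are compared here. A gene listed in the WT table alone, as Sox10, Sox17 and Sox18 are for total H3K4me3, entered through the group in which it was high. Its difference carries that choice. Medians over all regions take the regions of both genotypes, so a lower median of the members carries that choice as well. Total H3K4me3 at Sox10 fell in the DKO clones. It was 2.40 and 1.23 in WT clones 57 and 58, on 284 and 112 reads, and -0.11 and -0.00 in DKO clones 43 and 53, on 72 and 69 reads, with IgG-IgG at 0.26. Both DKO clones lay below both WT clones and below IgG-IgG. The difference of -1.87 (SE 0.57, 3.65-fold lower) was called (limma adjusted p = 0.0422), and 2.87% of regions had a lower difference. Sox10 was the 1 member of 10 called lower, against 2.47% of regions, and 0 were called higher (0.254%). Read in the same fit at the regions of the DKO table, which hold 7 members and not Sox10, 0 were called lower. The call ended without WT clone 57 (-1.29), DKO clone 43 (-1.82) or DKO clone 53 (-1.92), without a variance trend (limma adjusted p = 0.0546), with the lowest quartile of regions left out (limma adjusted p = 0.154) and over the wider E14 region (-0.88).

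Sox18 and Sox17 had the next lowest differences. Total H3K4me3 at Sox18 was 3.07 and 1.68 in WT and 1.57 and 1.39 in DKO, with IgG-IgG at 1.04, a difference of -0.89 (SE 0.76, limma adjusted p = 0.988). At Sox17 it was 1.74 and 0.85 in WT and 0.72 and 0.81 in DKO, with IgG-IgG at 1.12, a difference of -0.53 (SE 0.59). At both genes the DKO clones lay below the WT clones, by a narrow margin from clone 58, and at Sox17 WT clone 58 and both DKO clones lay below IgG-IgG. Both DKO clones lay below both WT clones at 3 of 10 members, Sox10, Sox17 and Sox18, as at 12.6% of regions. The same 3 members lack an H3K4me3 region within 1.5 kb in the DKO table, which describes these same DKO clones and is no separate measurement. The other 7 members had differences from -0.22 for Sox8 to 0.32 for Sox1, with SE from 0.58 to 0.88 and limma adjusted p of 1.00. With WT clone 58 left out, Sox18 was called as well (-1.58, limma adjusted p = 0.0137), against 7.36% of regions called lower, but that fit rests on WT clone 57 alone, with the spread taken from the DKO clones.

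Total H3K27me3 gave no call at these genes. The 8 members with a region had differences from -0.37 for Sox10 to 0.32 for Sox8, with a median of -0.00 against 0.11 over all regions. At Sox10 the levels were 1.87 and 1.15 in WT and 0.86 and 1.42 in DKO, so the clones overlapped. At Sox18 they were 2.18 and 1.54 in WT and 1.80 and 1.81 in DKO, a difference of -0.05, and at Sox17 1.93 and 1.24 in WT and 1.76 and 1.38 in DKO, a difference of -0.02. By limma 0 of 8 were called, against 1.78% of regions lower and 0.976% higher, and 0 had an unadjusted p under 0.05 (8.15% of regions lower and 7.25% higher). Both DKO clones lay below both WT clones at 0 of 8 (18.5% of regions). The 95% interval was -1.18 to 0.43 for Sox10, -0.88 to 0.77 for Sox18 and -0.83 to 0.80 for Sox17.

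**Figure D4:**
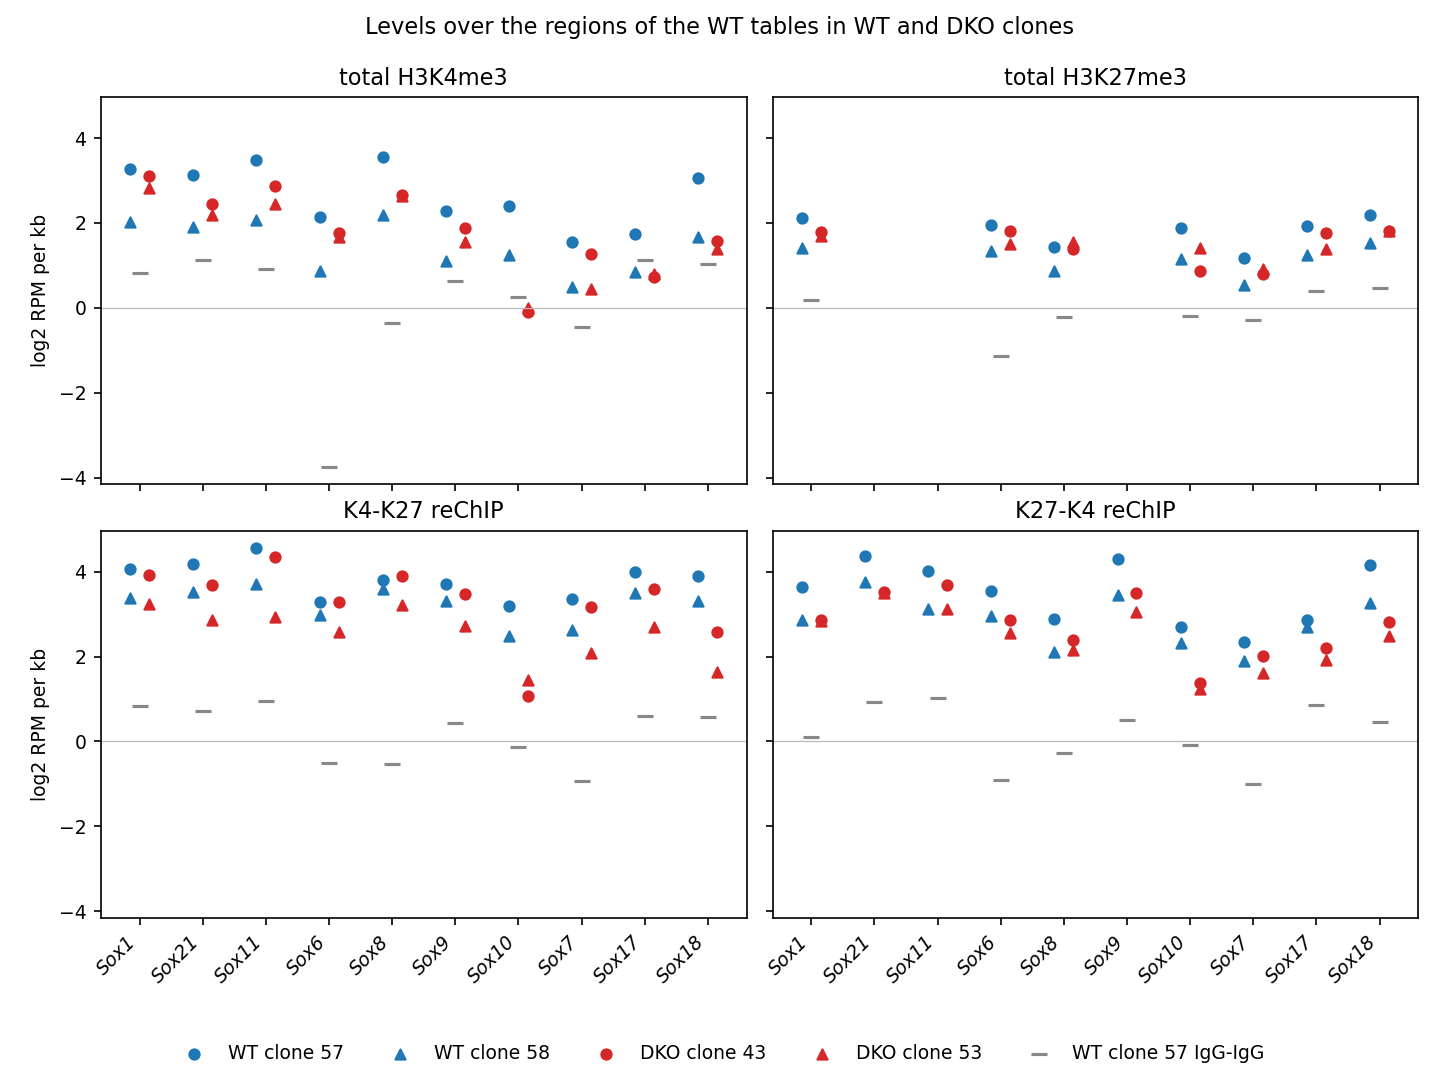
Level (log2 RPM per kb) over the WT-table region of each Sox gene in WT clones (blue), DKO clones (red) and the WT clone 57 IgG-IgG library (grey line), 1 panel per ChIP; no symbols are drawn where the WT table lists no region. DKO points of Sox10 lie below the WT points in total H3K4me3, K4-K27 and K27-K4, and the lowest IgG-IgG line, at Sox6 in total H3K4me3, rests on 2 reads.

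K4-K27 had its lowest differences at Sox10 and Sox18. At Sox10 it was 3.20 and 2.50 in WT and 1.07 and 1.46 in DKO, with IgG-IgG at -0.13, a difference of -1.58 (SE 0.59, limma adjusted p = 0.168). At Sox18 it was 3.89 and 3.32 in WT and 2.57 and 1.64 in DKO, with IgG-IgG at 0.58, a difference of -1.50 (SE 0.61, limma adjusted p = 0.192). At both genes the genotypes did not overlap, and both DKO clones kept levels above IgG-IgG. At Sox17 the levels were 3.99 and 3.50 in WT and 3.61 and 2.69 in DKO, which overlapped (-0.60). By limma 0 of 10 members were called (1.19% of regions were called lower and 0.00557% higher), 2 of 10 had an unadjusted p under 0.05 (9.41% of regions lower), and 2 of 10 did not overlap (19.2% of regions). All 10 differences were below 0, the other 7 between -0.59 for Sox21 and -0.15 for Sox8. The median, read at WT-table regions, was -0.45 against -0.01 over all regions of both genotypes. With centred libraries Sox18 was called (-1.46, limma adjusted p = 0.0239) and Sox10 was not (limma adjusted p = 0.0633), against 1.52% of regions called lower.

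K27-K4 had its lowest differences at Sox10, Sox18 and Sox17. At Sox10 it was 2.69 and 2.32 in WT and 1.38 and 1.24 in DKO, a difference of -1.20 (SE 0.44, limma adjusted p = 0.133). At Sox18 it was 4.17 and 3.27 in WT and 2.81 and 2.49 in DKO, a difference of -1.06 (SE 0.56, limma adjusted p = 0.285). At Sox17 it was 2.87 and 2.71 in WT and 2.20 and 1.91 in DKO, a difference of -0.73 (SE 0.48, limma adjusted p = 0.39). All 3 genes had both DKO clones below both WT clones, as did Sox21 and Sox6, which makes 5 of 10 members against 30.8% of regions. By limma 0 of 10 were called (2.24% of regions were called lower and 0.027% higher), and 1 of 10, Sox10, had an unadjusted p under 0.05, near the 13.2% of regions that were lower at that p. All 10 differences were below 0, the other 7 between -0.60 for Sox9 and -0.18 for Sox11. The median, read at WT-table regions, was -0.54 against -0.15 over all regions of both genotypes. With centred libraries, which moved every difference by 0.18, that of Sox11 was 0.00 and the other 9 stayed below 0. With WT clone 58 left out, Sox10 (-1.38) and Sox18 (-1.51) were called, against 9.29% of regions called lower, and that fit likewise rests on WT clone 57 alone.

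**Figure D5:**
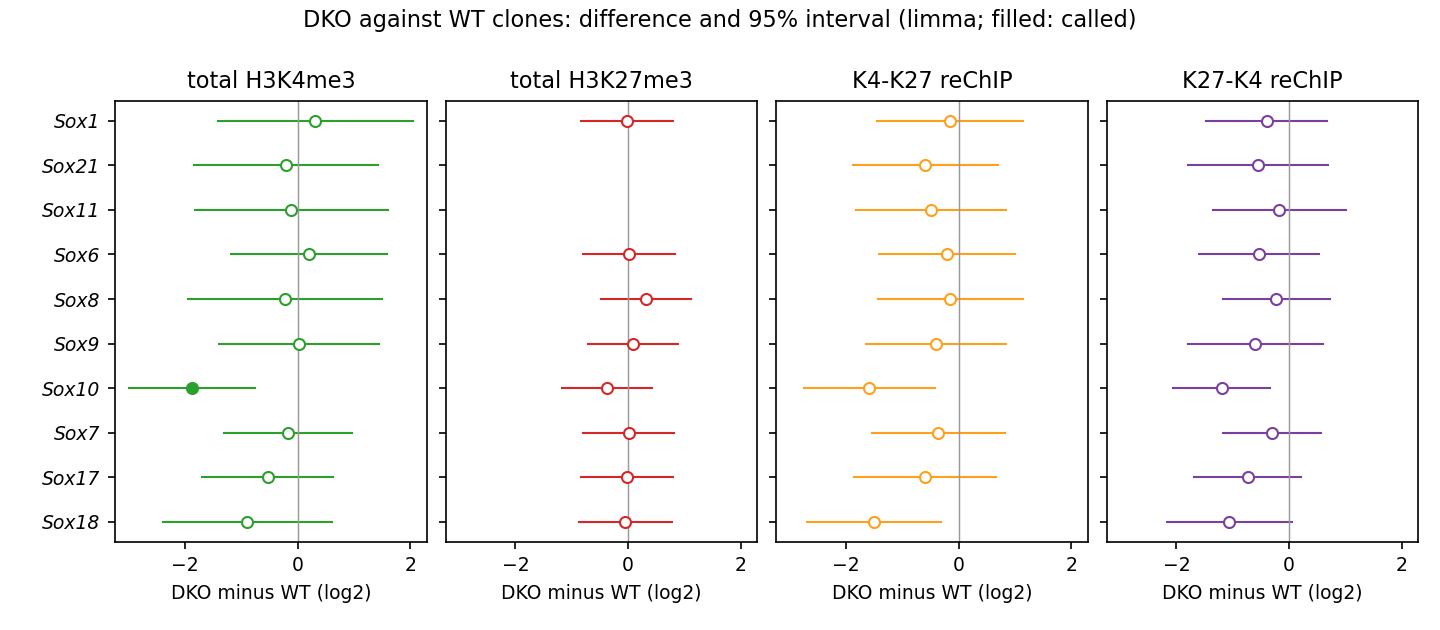
DKO minus WT difference (log2) with the 95% interval from limma at each Sox gene, 1 panel per ChIP, 2 clones against 2; the filled point was called. Sox10 has the lowest value in each of the 4 panels, and in the H3K27me3 panel every interval includes 0.

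The 4 ChIPs can be set side by side. At Sox10 the fitted differences were -1.87 and -0.37 for the H3K4me3 and H3K27me3 totals, and -1.58 and -1.20 for the K4-K27 and K27-K4 reChIPs. At Sox18 they were in this order -0.89, -0.05, -1.50 and -1.06. The DKO table listed a total H3K27me3 region at Sox17 and Sox18 and none at Sox10. Sox7, the third gene of group F, had differences of -0.17, 0.01, -0.36 and -0.30, all with overlapping clones. No fit compared the ChIPs, so whether a gene differed more between genotypes in some ChIPs than in others was not tested.

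The other Sox genes with an annotated start site (Sox2, Sox3, Sox4, Sox5, Sox12, Sox13, Sox14, Sox15, Sox30 and Sry) give a comparison from the same family. In E14 cells 7 of 10 had a K4-K27 region (58.7% of all genes) and 9 of 10 a K27-K4 region (66.2%). These counts were 8 (59.4%) and 5 (33.7%) in WT clones, and 8 (57.8%) and 5 (32.1%) in DKO clones. K27-K4 over total H3K27me3 was called at 9 of 9 with a region in E14 (59.6% of regions) and at 4 of 5 in WT (24.4%). K4-K27 over total H3K4me3 was called at 0 of 7 in E14 (0% of regions), where 4 had an unadjusted p under 0.05 (28.9%). Sox2, the pluripotency gene of the family, had a difference of -1.19. Between DKO and WT clones 0 were called in any ChIP. Both DKO clones lay below both WT clones at Sox30 alone in total H3K4me3 (1 of 7, 12.6% of regions) and in K4-K27 (1 of 8, 19.2%). The K4-K27 difference of Sox30 was -1.79 (limma adjusted p = 0.129). In K27-K4 they lay below at Sox3, Sox14 and Sox30 (3 of 5, 30.8%). Both DKO clones lay above both WT clones at Sox13 in total H3K27me3 and at Sox15 in K4-K27.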

How the data were processed

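The values used are log2 RPM per kb of region, as the authors deposited them in 12 tables for 26 libraries. By the submitters' notes and the study's methods, reads were trimmed with Trim Galore 0.6.6, aligned to mm10 with BWA 0.7.13 and handled with Picard 2.6.0 and SAMtools 1.9. The study's methods name EPIC2 for its peaks and the submitters' notes name MACS2, and how the deposited regions, whose bounds all lie on a grid of 150 bp, were called is not given in the sources used here. SeqMonk then counted alignments of mapping quality over 20, duplicates included. The steps between values gave whole reads within 0.01 for 100.0% of values, with 0 reads entered as 0.9 reads. In the tables, 32 columns belong to no sample and were not used.

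Members and lists were chosen with earlier results of these data known. All 10 members are named, in order of subgroup. Differences were fitted over every region of a reChIP table, of the regions both E14 reChIPs share or, between DKO and WT, of the WT and DKO tables of a ChIP pooled, with limma 3.58.1 (trend, robust) in R 4.3.3, on the log2 values as deposited, and p-values were adjusted by Benjamini-Hochberg over all regions. A call needed a log2 difference of at least 1 and an adjusted p under 0.05. Groups held 2 libraries each, so p-values measure the spread between those libraries, and a member that was not called is not shown to be unchanged. With a library left out, the lone library of its group was assumed to vary like the other group. The fit was tested on simulated data, where it missed most shifts of 2 log2 units in every comparison but total H3K27me3 between DKO and WT. Tables were read with Python 3.11.15, pandas 2.3.3 and numpy 2.4.6, and figures were drawn with matplotlib 3.10.9.

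E14 libraries of the same number came from the same cells and sequencing batch, and WT libraries of the same number from the same clone, so the block pairs them. Deviations from the group means correlated across regions by 0.193, 0.498 and -0.0858 in the 3 E14 comparisons (K27-K4 against K4-K27, K4-K27 against total H3K4me3, K27-K4 against total H3K27me3) and by 0.347 and 0.0966 in the 2 WT ones. The alternatives were median centring, no variance trend, the lowest quartile of regions left out, no size limit, leaving out each library, the replicate block, the DKO table's region, other promoter windows and, chosen after seeing the data, the shared E14 regions.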

Additional observations from a re-analysis of the deposited data

Results flagged for a closer look

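At Sox11, K27-K4 minus K4-K27 over the shared E14 region was 0.46 and 1.36 in E14 replicates 1 and 2, and -0.57 and -0.47 in WT clones 57 and 58, so every E14 replicate was above 0 and every WT clone below 0. The medians over the 21857 shared regions had the same signs, 0.58 and 0.78 in the E14 replicates and -0.29 and -0.32 in the WT clones. Relative to those medians Sox11 stood at -0.12 and 0.58 in the E14 replicates and at -0.28 and -0.15 in the WT clones, which no longer separates the cells by sign. The difference between the groups was not tested, and E14 cells and clones were sequenced in different batches, which cannot be told apart from the cells.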

How the results depend on the processing

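With 2 libraries per group the calls at single members depended on the fit, and the cause was not tested. For total H3K4me3 between DKO and WT, the 1 member called lower became 0 without a variance trend, with the lowest quartile left out, over the DKO table's regions (7 members) and over the shared E14 regions, and 0 to 2 with a library left out. For K4-K27 the count of 0 became 1 with centred libraries, and for K27-K4 it was 0 to 2 with a library left out. For K4-K27 over total H3K4me3 in E14, 0 became 7 with centred libraries, 10 with the replicate block and 0 to 10 with a library left out. For K27-K4 over total H3K27me3 in E14, 10 became 2 with centred libraries, 3 with the replicate block and 0 to 10 with a library left out. In the WT clones, K4-K27 over total H3K4me3 went from 0 to 7 with centred libraries and 9 with the replicate block, and K27-K4 over total H3K27me3 from 4 to 1 with centred libraries, 10 with the replicate block and 0 to 4 with a library left out. The replicate block changed no other count.

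The H3K27me3 difference of Sox17 (-0.02) ranged from -0.36 to 0.33 with a library left out and was 0.0301 over the DKO table's region. That of Sox18 (-0.05) ranged from -0.37 to 0.27 and was 0.0101 over the DKO table's region and 0.0105 over the shared E14 regions. Differences changed sign under some alternative at 7, 6, 5 and 2 members between DKO and WT, in the order of the totals of H3K4me3 and H3K27me3 and then the reChIPs K4-K27 and K27-K4, and 0 of them were called after the change. Counting just regions where both libraries exceeded IgG-IgG by 2 log2 units or more left 0 members for both E14 totals, 2 for total H3K4me3 and 1 for total H3K27me3 in WT, and in DKO 2 for total H3K4me3 and 1 for total H3K27me3. Of the reChIP regions it left 6 (K4-K27) and 7 (K27-K4) in DKO, 10 and 9 in WT, and 8 of either in E14, where Sox8 and Sox10 were lost. The share of all regions past this limit was not computed. With a window of 5 kb, total H3K27me3 in E14 listed 7. Over all regions, the count called lower in DKO ranged from 74 to 4714 for total H3K4me3 (1582), from 0 to 948 for total H3K27me3 (948), from 189 to 4239 for K4-K27 (640) and from 482 to 5504 for K27-K4 (1325). Called higher in DKO were 0 to 1304 (163), 0 to 568 (520), 3 to 3476 (3) and 0 to 3126 (16). Called higher were 0 to 8671 (0) for K4-K27 over its total in E14, 1647 to 29608 (21586) for K27-K4 over its total in E14, 11 to 3508 (37) and 569 to 8508 (7615) for the same in WT, and 0 to 1523 (0) for K27-K4 over K4-K27.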
